A study of Homo sapiens with 80 samples.

Results

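The 6 libraries described here hold RNA from human pluripotent stem cells 2 or 3 days into cardiomyocyte differentiation, out of 24 libraries of an RNA-only experiment and 80 libraries in the series. They were chosen by label: H9, IMR90-4 and WTC11 each gave 1 library from a differentiation that later reached high purity and 1 from a differentiation that later reached low purity. H9 is an embryonic stem cell line, and IMR90-4 and WTC11 are induced pluripotent lines. Per the labels, purity was measured by flow cytometry for cardiac troponin T once differentiation had finished on day 16, and the class was assigned after that. All 6 differentiations received CHIR99021, an inhibitor of GSK3 that activates WNT signalling, on day 0 at 6 to 12 uM as optimized for each line, and IWP2, an inhibitor of WNT secretion, at 5 uM on the day sampled here. That day was 3 for H9 and IMR90-4, which also received conditioned medium then, and 2 for WTC11. The labels do not say whether cells were collected before or after IWP2 was added. In H9 the low-purity differentiation began at passage 55 and the high-purity one at passage 58; in IMR90-4 the high-purity one began at passage 55 and the low-purity one at passage 75; in WTC11 the low-purity one began at passage 69 and the high-purity one at passage 81. Each class therefore had n = 3 differentiations, 1 per line with no repeat wells, and purity, passage and individual differentiation cannot be told apart within a line.

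At this step of the protocol, pluripotent cells pass through a primitive streak-like state. WNT signalling induces TBXT, MIXL1 and EOMES, which are transcription factors of the streak, and MESP1 then marks mesoderm that can form heart. NODAL, BMP, FGF and WNT ligands made by the cells shape this step, and high or prolonged WNT activity is known to favour posterior and paraxial mesoderm, marked by CDX and HOX genes and by TBX6 and MSGN1. The question set by the design is which transcripts already differ between differentiations of opposite outcome in every line tested.

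Depth ranged from 21180452 to 39179812 reads per library, and 27276 to 28674 genes had at least 1 read. Levels below are the deposited TPM (a level scaled for gene length and library total). Differences are high minus low on the log2 CPM scale (reads scaled to library size with TMM factors, prior count 2), so 1 is a 2-fold difference. Streak and mesoderm markers were present in all 6 libraries, and cardiomyocyte markers were low except in the low-purity H9 library. There, the 10 cardiomyocyte markers summed to 502 TPM, against 16.3 to 49.1 TPM in the other 5 libraries. MYL7 and MYL4, atrial myosin light chains, made up most of it at 219 and 268 TPM, while TNNT2 was at 1.58 TPM. LUM, a matrix proteoglycan of stromal cells, was at 51.3 TPM in that library and at most 0.0183 TPM in the other 5. The library of another line most like the low-purity H9 library was the high-purity IMR90-4 library of day 5 (Pearson r = 0.931 across genes), whereas that most like the high-purity H9 library was the high-purity IMR90-4 library of day 3 (r = 0.941). The low-purity WTC11 library of day 2 had near-equal values with the high-purity IMR90-4 library of day 0 (r = 0.909), the low-purity H9 library of day 0 (r = 0.907) and the low-purity IMR90-4 library of day 3 (r = 0.905). Because the low-purity H9 library stands apart, the counts over gene lists are also given for IMR90-4 and WTC11 alone, where fewer lines have to agree. In bulk RNA, fewer cells of a type and less RNA per cell cannot be told apart.

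**Figure D1:**
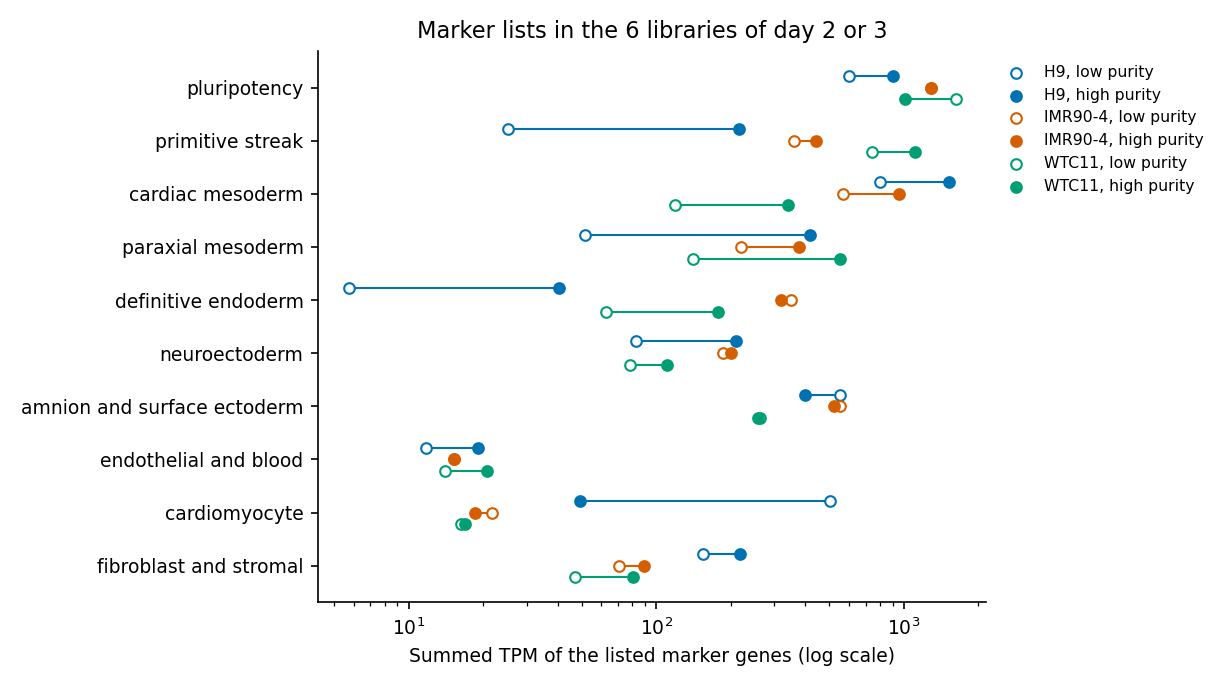
Summed TPM of 10 marker lists (log axis) in the 6 libraries; each line joins the low-purity (open) and high-purity (filled) library of 1 cell line. The low-purity H9 library is at 502 TPM for the cardiomyocyte list and at 25.2 TPM for the primitive streak list, outside the range of the other 5 libraries on both.

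The 3 lines shared few differences. Of 23848 genes tested, 3475 (14.6%) were higher and 3440 (14.4%) were lower in the high-purity library of all 3 lines. A difference of at least 2-fold in the same direction in all 3 lines was seen for 46 genes that were higher (0.193%) and 69 that were lower (0.289%). In 95 of these 115 genes, at least 1 line had under 50 reads in its higher library, so that with a minimum of 50 reads 12 higher and 8 lower genes were left. No gene passed a Benjamini-Hochberg adjusted p under 0.05 with a 2-fold change in the edgeR quasi-likelihood test paired by line (0 of 23848, 0%), and the smallest adjusted p was 0.0583. At an unadjusted p under 0.05 the same test gave 945 genes higher (3.96%) and 951 lower (3.99%). Without the pairing by line these counts were 445 and 576. These fits took their spread from all 24 libraries of the 4 steps. Libraries of 1 differentiation are not independent across steps, which the p-values and SEs do not account for. With only the 6 libraries described here, the smallest edgeR adjusted p was 0.754. The DESeq2 Wald test with the paired design over 24 libraries called 76 genes (41 higher and 35 lower). Of these, 74 had the same direction in all 3 lines, against 29% of all genes. A paired test favours such genes, so this count is no separate support. Limma on log2(TPM + 1) called 2, edgeR without a filter on low counts called 1, and edgeR without the H9 libraries called 1. All 3 high-purity libraries lay above all 3 low-purity libraries for 664 genes (2.78%) and below them for 659 (2.76%).

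The size of the difference itself varied by line. At least 2-fold differences were found for 5280 genes in H9 (22.1%), 3520 in WTC11 (14.8%) and 1930 in IMR90-4 (8.09%), and the SD of the difference over genes was 1.05 in H9, 0.745 in WTC11 and 0.539 in IMR90-4. Across genes, the difference in H9 correlated with that in IMR90-4 at r = 0.128 and with that in WTC11 at r = 0.0823, and IMR90-4 correlated with WTC11 at r = 0.0884; genes are not independent replicates. The SD between the 3 lines exceeded the absolute mean of the 3 differences for 74.6% of genes. Its median was 0.423 on the log2 scale, against 0.229 for the absolute mean. Of 263 genes with a 2-fold difference in every line, 115 had 1 direction throughout, and 994 genes (4.17%) were at least 2-fold higher in 1 line and at least 2-fold lower in another. Of the genes 2-fold apart in both H9 and IMR90-4, 37.5% had opposite directions, against 42.6% for H9 and WTC11 and 38% for IMR90-4 and WTC11.

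**Figure D2:**
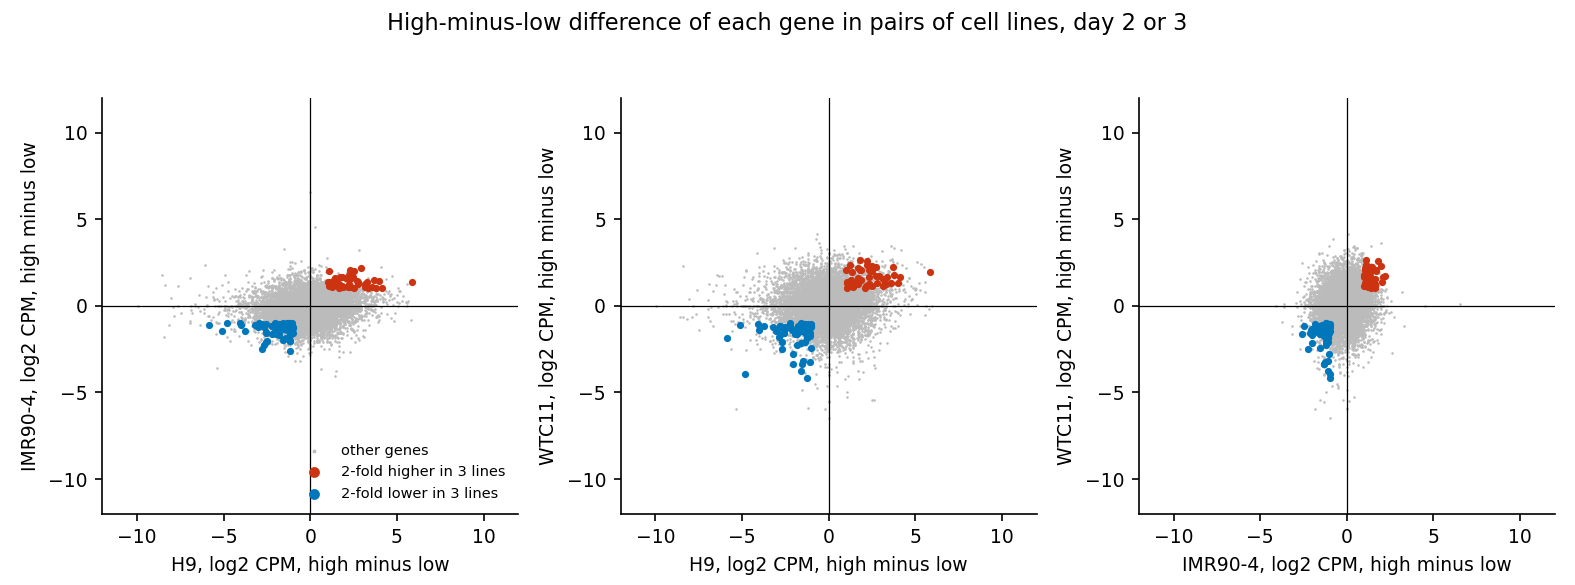
High-minus-low difference (log2 CPM) of each gene in pairs of cell lines; red, at least 2-fold higher in all 3 lines (46 genes); blue, at least 2-fold lower in all 3 lines (69 genes); grey, the other genes. The grey cloud has no diagonal (r = 0.0823 to 0.128) and is narrowest for IMR90-4.

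Genes chosen in 2 lines were then read in the line that had not chosen them, where 52.4% to 70.6% kept the direction. Of 136 genes at least 2-fold higher in both H9 and IMR90-4, 70.6% were also higher in WTC11, where 46.9% of all genes were higher. The 361 genes at least 2-fold lower in H9 and IMR90-4 were lower in WTC11 for 52.4%, close to the 51.4% of all genes. For 462 genes 2-fold higher in H9 and WTC11, 65.6% were higher in IMR90-4 (51.9% of all genes), and for 366 genes 2-fold lower in these lines, 64.2% were lower in IMR90-4 (46.8% of all genes). For 137 genes 2-fold higher in IMR90-4 and WTC11, 52.6% were higher in H9 (48.3% of all genes), and for 238 genes 2-fold lower, 60.9% were lower in H9 (50% of all genes). The lists share lines with each other, and no test was made of these shares.

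Among 11954 protein-coding genes with at least 50 reads in the higher library of each line, the 12 with the strongest agreement on the higher side were DRC7, KIAA1324, C7, PTGS1, EMX1, HVCN1, GRAP2, CPLX2, RASGRP3, ADAMTS15, PPFIA2 and WNT4, which were at least 2-fold higher in each line. They encode products of unlike kinds. WNT4, a secreted WNT ligand (chromosome 1, 22117313 to 22143097, GRCh38), was at 0.824 TPM in low and 14.8 TPM in high purity in H9, at 3.88 and 7.98 TPM in IMR90-4 and at 0.343 and 1.19 TPM in WTC11. Its differences were 4.15, 1.02 and 1.66, the level being higher in high purity in each line although the groups overlapped between lines (edgeR log2 fold change 2.24 ± 0.58 SE, adjusted p = 0.421). HVCN1, a voltage-gated proton channel, was at 3.98 and 11.7 TPM in H9, 15.5 and 35.7 TPM in IMR90-4, and 4.2 and 10.7 TPM in WTC11. Its 3 differences of 1.55, 1.18 and 1.24 were among the closest of the 12 (SD 0.20; log2 fold change 1.33 ± 0.25 SE, adjusted p = 0.385). DRC7, a subunit of the complex that regulates dynein in motile cilia, was at 0.565 and 7.68 TPM in H9, 2.23 and 6.39 TPM in IMR90-4, and 0.283 and 1.52 TPM in WTC11 (differences 3.70, 1.48 and 2.22).

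Several of the other 9 are known from signalling or secretion. ADAMTS15, a secreted protease that cleaves versican, differed by 1.88, 1.07 and 2.04 in H9, IMR90-4 and WTC11, with levels of 2.68 and 9.88, 1.91 and 4.09, and 0.829 and 3.69 TPM in low and high purity. CPLX2, a complexin that binds the membrane fusion machinery, differed by 2.31, 1.09 and 2.05 at levels of at most 1.99 TPM. RASGRP3, an exchange factor for Ras proteins, differed by 1.25, 1.09 and 2.37, and GRAP2, an adaptor of immune cell receptors, by 1.83, 1.09 and 2.66. C7, a complement component, differed by 3.13, 1.25 and 1.54. PTGS1, the constitutive cyclooxygenase, differed by 1.42, 1.60 and 1.23 but was at 0.652 TPM or less in every library. EMX1, a forebrain homeobox factor, and KIAA1324 stayed under 1 TPM as well, with smallest differences of 1.23 and 1.29. PPFIA2, a scaffold of presynaptic sites, was 2.08, 1.61 and 1.03 higher. In DESeq2, 5 of the 12 passed an adjusted p of 0.05 with 2-fold (DRC7, HVCN1, CPLX2, ADAMTS15 and WNT4), and in edgeR none did. DESeq2 called 76 of 23848 genes in all. The 12 were chosen by their differences in the same libraries, so these calls are no separate support for them.

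**Figure D3:**
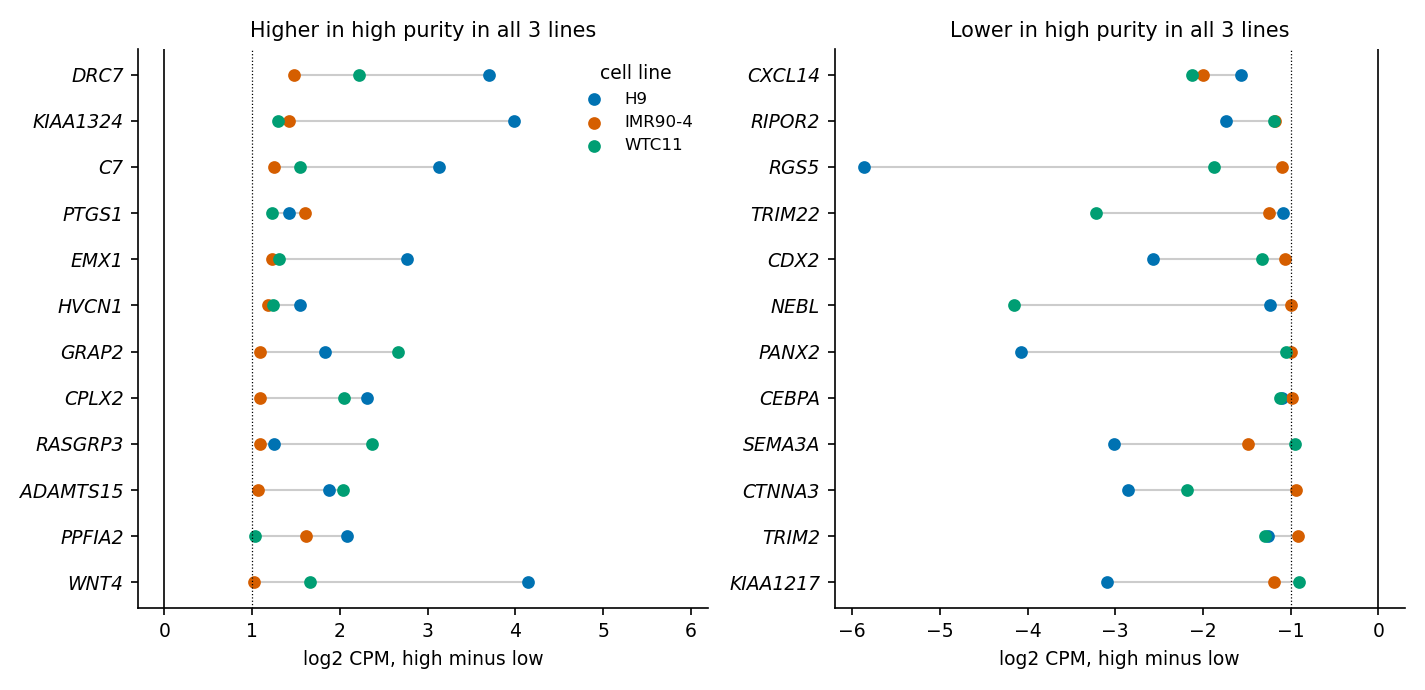
High-minus-low difference (log2 CPM) in H9 (blue), IMR90-4 (orange) and WTC11 (green) of the 12 genes with the largest smallest-of-3 difference in each direction; grey bars span the 3 lines and the dotted line marks 2-fold. The H9 point is the farthest from 0 for WNT4 (4.15) and RGS5 (-5.86), while PTGS1 and CEBPA differ little between lines.

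On the lower side, the 12 genes were CXCL14, RIPOR2, RGS5, TRIM22, CDX2, NEBL, PANX2, CEBPA, SEMA3A, CTNNA3, TRIM2 and KIAA1217, and the leading 7 were at least 2-fold lower in each line. CEBPA lay just outside that size with a smallest difference of -0.98, while PANX2, at -1.00, lay just inside. TRIM2, a ubiquitin ligase, was at 9.11 TPM in low and 3.78 TPM in high purity in H9, at 20.4 and 10.9 TPM in IMR90-4, and at 24.2 and 10.6 TPM in WTC11. It was lower by a like amount in each line (differences -1.26, -0.92 and -1.29; log2 fold change -1.16 ± 0.16 SE, adjusted p = 0.144). CEBPA, a transcription factor of fat and myeloid cells, was at 7.25 and 3.34, 3.34 and 1.71, and 1.56 and 0.747 TPM in low and high purity of H9, IMR90-4 and WTC11, so that its 3 differences had an SD of 0.08. CDX2, the caudal homeobox factor of posterior identity (chromosome 13, 27960918 to 27969315), was abundant in WTC11 with 21.5 TPM in low and 9.16 TPM in high purity, and it was at 1.44 and 0.225 TPM in H9 and 0.478 and 0.223 TPM in IMR90-4. Its differences were -2.57, -1.06 and -1.33 (adjusted p = 0.676).

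In several genes of this set 1 line had a far larger difference than the others. RGS5, a regulator of G protein signalling known from pericytes, was at 201 TPM in the low-purity H9 library and at 1.49 to 9.05 TPM in the other 5, with differences of -5.86, -1.10 and -1.88. NEBL, the actin-binding nebulette of the cardiac Z-disc, was at 22.4 and 1.35 TPM in WTC11 but at 10.6 and 4.43 TPM in H9 and 11.2 and 5.68 TPM in IMR90-4. TRIM22, an interferon-induced gene, was at 21.6 and 2.46 TPM in WTC11 and at most 1.28 TPM elsewhere. By contrast, CXCL14, a chemokine, differed by -1.57, -2.00 and -2.13 and so led this direction, with levels of 13.3 and 4.39 TPM in H9, 3.13 and 0.763 TPM in IMR90-4, and 3.15 and 0.738 TPM in WTC11. SEMA3A, a secreted axon guidance cue, and CTNNA3, the alpha-catenin of cardiac junctions, had smallest differences of -0.95 and -0.94. RIPOR2 had -1.18.

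TRIM2, COL5A1, EML5 and ID2 were among the 6 genes with the smallest p-values, and of these 4 only EML5 had a 2-fold difference in all 3 lines. COL5A1, a fibrillar collagen, differed by 1.55, 0.63 and 1.85 (log2 fold change 1.34 ± 0.20 SE, adjusted p = 0.192). ID2, a target of BMP signalling that inhibits basic helix-loop-helix factors, was at 90.5 and 31 TPM in H9, 85.7 and 53.8 TPM in IMR90-4, and 155 and 51.5 TPM in WTC11. All 3 high-purity libraries were below all 3 low-purity libraries for ID2 (log2 fold change -1.31 ± 0.22 SE, adjusted p = 0.332). EML5, a microtubule-binding protein at 0.266 TPM or less, had -2.05 ± 0.34 SE (adjusted p = 0.332).

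The genes 2-fold apart in all 3 lines were chosen at this step, and the same differentiations were also sampled before and after it. Of the 46 genes 2-fold higher in all 3 lines, 4 were higher in all 3 lines on day 0, 13 on day 4 or 5 and 13 on day 6 or 7, with 11.9%, 13.1% and 16.4% of all genes showing that direction. Of the 69 lower genes, 16, 9 and 19 were lower in all 3 lines at these steps, with 14%, 13.7% and 15.7% of all genes. Their median fitted log2 fold changes were 2.01 and -2.03 at day 2 or 3, 0.02 and -0.09 on day 0, 0.42 and -0.14 on day 4 or 5, and 0.55 and -0.35 on day 6 or 7. The change of the difference from day 0 to day 2 or 3 passed an edgeR adjusted p under 0.05 for 0 genes (0%) and an unadjusted p under 0.05 for 784. DESeq2 called 2 genes for that change. PHACTR2, a regulator of phosphatase 1 and actin, was chosen from earlier results of these data and was lower in high purity in all 3 lines at the 4 steps. Its differences in H9, IMR90-4 and WTC11 were -0.55, -0.38 and -0.36 on day 0, -0.51, -0.77 and -0.82 at day 2 or 3, -0.16, -0.55 and -0.39 on day 4 or 5, and -1.29, -0.60 and -0.80 on day 6 or 7 (edgeR adjusted p = 0.385 at day 2 or 3).

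Markers of the streak and of mesoderm leaned towards high purity. Of 11 primitive streak genes measured, 6 were higher in all 3 lines and none lower, 2 of them at an unadjusted p under 0.05; of all genes, 14.6% were higher and 14.4% lower in all 3 lines, and 3.96% were higher at that p. Without H9, 6 were higher and 1 lower in both other lines, against 25% of all genes higher and 24.6% lower there. These shares of all genes are the background for each list count that follows. MIXL1, a homeobox factor of the streak, was at 5.98 and 87.1 TPM in low and high purity of H9, 84.5 and 137 TPM in IMR90-4, and 287 and 423 TPM in WTC11 (differences 3.86, 0.67 and 0.46; adjusted p = 0.599). EOMES was at 2.65 and 54.5 TPM in H9, 113 and 136 TPM in IMR90-4, and 54.5 and 71.7 TPM in WTC11. TBXT, the brachyury factor, was at 0.708 and 2.92 TPM in H9, 4.77 and 6.18 TPM in IMR90-4, and 101 and 212 TPM in WTC11. The low-purity H9 library had the lowest level of the 6 for each of these 3 factors. The median difference over the list was 2.14 in H9, 0.35 in IMR90-4 and 0.30 in WTC11, where the medians of all genes were -0.00, 0.01 and -0.02.

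For cardiac mesoderm, 5 of 12 genes were higher in all 3 lines and none lower, and without H9 10 of 12 were higher and none lower in both other lines. MESP1 was at 10.2 and 166 TPM in H9, 62.3 and 99.3 TPM in IMR90-4, and 3.16 and 7.69 TPM in WTC11 (differences 4.02, 0.65 and 1.18; adjusted p = 0.632). APLNR, the apelin receptor of early cardiac progenitors, was at 92.2 and 657, 226 and 440, and 49.3 and 236 TPM (differences 2.84, 0.94 and 2.16; adjusted p = 0.623). H9 went the other way for 7 of the 12, among them KDR, PDGFRA and GATA6, receptors and a transcription factor of later cardiac mesoderm. PDGFRA was at 256 TPM in low and 114 TPM in high purity of H9, against 34.2 and 48.6 TPM in IMR90-4 and 4.11 and 19.6 TPM in WTC11.

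Paraxial mesoderm genes gave 6 of 11 higher and 1 lower in all 3 lines (14.6% and 14.4% of all genes), and 5 of the 6 had an unadjusted p under 0.05 (3.96% of all genes). Without H9, 8 of 11 were higher and 1 lower in both other lines (25% and 24.6% of all genes). FOXC1, a forkhead factor, was at 6.46 and 89.6 TPM in H9, 39.8 and 64 TPM in IMR90-4, and 7.79 and 38.6 TPM in WTC11 (log2 fold change 2.21 ± 0.67 SE, adjusted p = 0.492). TBX6, the T-box factor that specifies this fate, was at 3.45 and 35.3, 8.64 and 17.5, and 8.65 and 29.5 TPM (1.99 ± 0.50 SE, adjusted p = 0.417). DLL3, a Notch ligand of the segmenting mesoderm, was at 14.1 and 193, 123 and 223, and 35.9 and 149 TPM (2.17 ± 0.59 SE, adjusted p = 0.431). The median difference of the list was 1.73 in H9, 0.57 in IMR90-4 and 1.67 in WTC11. In DESeq2 the 3 genes passed, with adjusted p-values of 0.0374, 0.00849 and 0.00935. RIPPLY2 and LFNG of the same list did not pass there (DESeq2 adjusted p = 0.184 and 0.222). The members named were those with the largest mean differences in these libraries. The DESeq2 calls are therefore no separate support for them, and DESeq2 called 76 of 23848 genes in all. In H9, 7 of 11 members were higher in high purity, and MEOX1 differed by -3.70 in H9, 0.86 in IMR90-4 and 0.24 in WTC11.

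**Figure D4:**
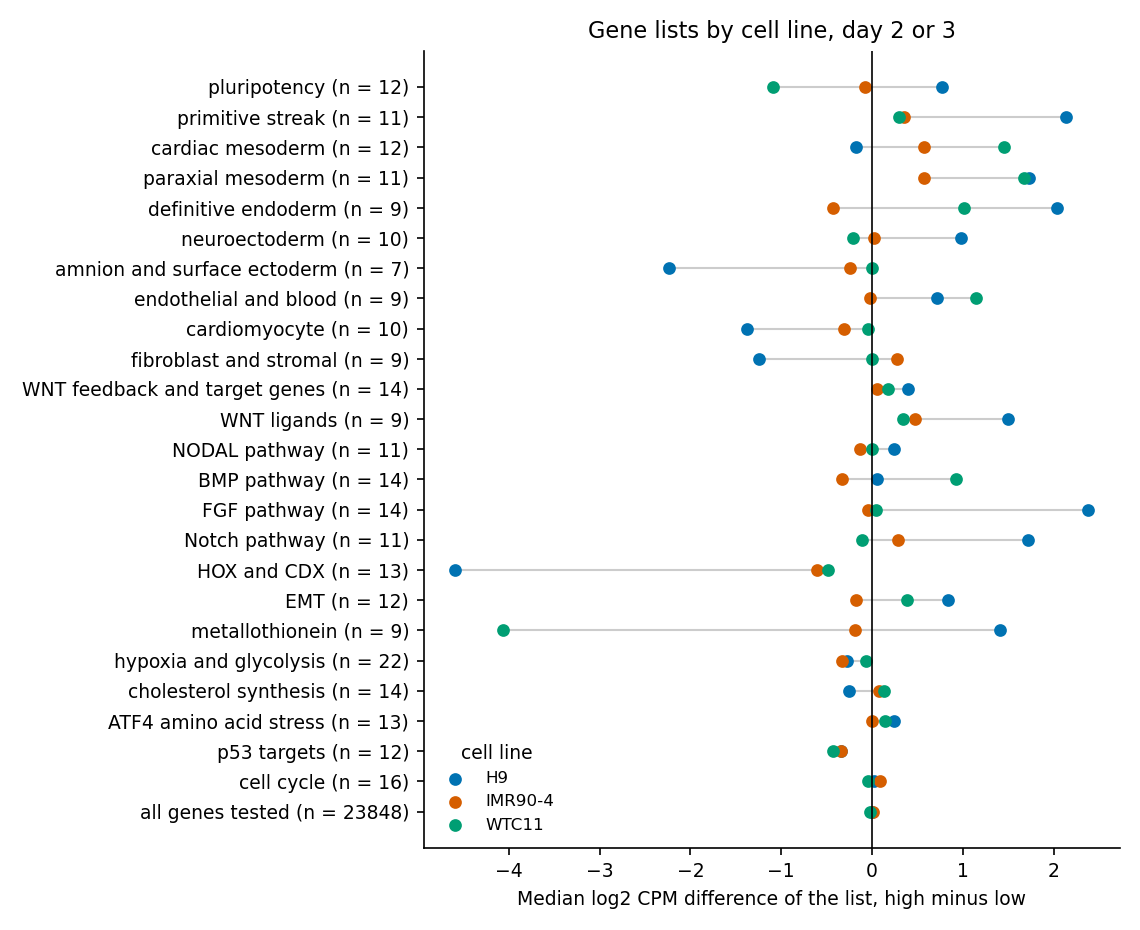
Median high-minus-low difference (log2 CPM) of each gene list in H9 (blue), IMR90-4 (orange) and WTC11 (green), with the number of genes tested. Primitive streak, paraxial mesoderm, WNT ligand, and WNT feedback and target genes lie to the right of 0 in all 3 lines. Cardiomyocyte, HOX and CDX, hypoxia and glycolysis, and p53 target genes lie to the left in all 3 lines. Some of these points are close to 0. Pluripotency and metallothionein genes lie on both sides, and the medians of all genes lie at 0.

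Secreted signals showed a mixed picture. Of 9 WNT ligands, 5 were higher in all 3 lines and none lower, and these counts were 5 and 0 without H9. WNT5A, a ligand of the non-canonical pathway, was at 12.1 and 34 TPM in H9, 20.3 and 40 TPM in IMR90-4, and 6.55 and 26.4 TPM in WTC11, with all 3 high-purity libraries above all 3 low-purity libraries (1.46 ± 0.34 SE, adjusted p = 0.385). Of 14 feedback and target genes of canonical WNT signalling, 3 were higher and 1 lower in all 3 lines, and 5 were higher and 3 lower without H9. AXIN2, a feedback inhibitor of that pathway, differed by 1.07, 0.07 and -0.89. In the BMP pathway, 4 of 14 were higher and 1 lower in all 3 lines, and 5 and 1 without H9. BMP4 was at 90.8 and 105, 19.8 and 41.3, and 4.75 and 13.8 TPM (0.89 ± 0.23 SE, adjusted p = 0.421), while ID2 was the lower gene. Of 11 NODAL pathway genes, 3 were higher and 1 lower in all 3 lines, and 3 and 4 without H9. NODAL itself differed by -2.82, -0.04 and 0.00. For the 14 genes of the FGF pathway 2 were higher and 1 lower in all 3 lines, and 3 and 4 without H9. For the 11 of the Notch pathway 4 were higher and none lower, and 5 and 2 without H9.

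Genes of the epithelial to mesenchymal transition gave 3 of 12 higher and none lower in all 3 lines, namely SNAI1, SNAI2 and ZEB1, all transcriptional repressors of epithelial genes; without H9 these counts were 3 and 1. SNAI2 was at 12.5 and 51.7 TPM in H9, 14.2 and 20.3 TPM in IMR90-4, and 0.663 and 3.2 TPM in WTC11 (1.54 ± 0.31 SE, adjusted p = 0.385). SNAI1 differed by 1.36, 0.42 and 1.62. The list also holds epithelial genes such as CDH1, which differed by 1.98, -0.37 and 0.02, so its counts have no single direction. Of the 12 members, 10 were higher in H9, 4 in IMR90-4 and 10 in WTC11 (48.3%, 51.9% and 46.9% of all genes).

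Of 13 HOX and CDX genes, 5 were lower in all 3 lines and none higher (14.4% and 14.6% of all genes), with medians of -4.59 in H9, -0.61 in IMR90-4 and -0.48 in WTC11. All 13 were lower in H9, whose low-purity library stood apart: HOXB1 was at 116 TPM there, against 4.72 TPM in the high-purity one. Without H9, 5 of 13 were lower and 2 higher in both other lines (24.6% and 25% of all genes). In IMR90-4 HOXB1 was at 0.231 and 0.103 TPM, so that its difference rests on few reads. No member had an unadjusted p under 0.05.

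Pluripotency genes had opposite directions in the lines. All 12 were higher in high purity in H9, 5 of 12 in IMR90-4 and 1 of 12 in WTC11, where 48.3%, 51.9% and 46.9% of all genes were higher. NANOG was at 0.15 and 0.545 TPM in low and high purity of H9, 6.05 and 4.63 TPM in IMR90-4, and 64 and 20.3 TPM in WTC11. SOX2 was at 1.46 and 3.26, 4.35 and 1.34, and 99.5 and 19.9 TPM. Both genes were therefore most abundant in the low-purity WTC11 library. POU5F1 was listed at 6.15 and 17.8 TPM in H9 but did not exceed 0.624 TPM in the 4 libraries of the other lines; near-identical copies of this gene exist in the genome, and how shared reads were counted is not given in the sources used here, so its level is uncertain.

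Of 12 p53 targets, 7 were lower and 1 higher in all 3 lines, the medians were -0.34, -0.34 and -0.43, and without H9 9 were lower and 1 higher. FAS, a death receptor, differed by -2.25, -0.92 and -0.57, SESN1, an inhibitor of growth signalling under stress, by -1.32, -0.33 and -0.52, and CDKN1A, the cell cycle inhibitor p21, by -0.36, -0.95 and -0.42. FAS, SESN1 and FDXR had an unadjusted p under 0.05 (adjusted p = 0.524, 0.57 and 0.599). Of 22 hypoxia and glycolysis genes, 6 were lower and 1 higher in all 3 lines, and 9 and 2 without H9. ADM, a hypoxia-induced peptide hormone, was at 5.98 and 3.33 TPM in H9, 25.4 and 8.79 TPM in IMR90-4, and 69.5 and 18.8 TPM in WTC11 (-1.48 ± 0.30 SE, adjusted p = 0.385), and without the H9 libraries it was the gene called (-1.77, adjusted p = 0.0198). Of 14 cholesterol synthesis genes 2 were higher and none lower in all 3 lines, but 10 were higher and 1 lower in both IMR90-4 and WTC11, and 3 were higher in H9. Of 13 amino acid stress genes 4 were higher and 3 lower in all 3 lines, and 6 and 4 without H9. Of 16 cell cycle genes 3 were higher and none lower, and 5 and 1 without H9. By the edgeR fit, 2 of the 16 were lower in high purity at an unadjusted p under 0.05 (3.99% of all genes) and none higher.

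Markers of other cell types the cultures could hold were also counted. Definitive endoderm markers summed to 5.71 TPM in low and 40.3 TPM in high purity of H9, to 349 and 320 TPM in IMR90-4 and to 62.8 and 177 TPM in WTC11, and 1 of 9 was higher and none lower in all 3 lines (2 and 2 without H9). SOX17, an endoderm factor, differed by 4.90, -0.43 and 1.01. Of 10 neuroectoderm markers 1 was higher and none lower in all 3 lines (1 and 3 without H9), with sums of 78.5 to 186 TPM in low and 110 to 209 TPM in high purity, and PAX6 and SOX1, which define that fate, were at 0.134 TPM or less in every library. For amnion and surface ectoderm 3 of 7 were lower and none higher in all 3 lines (3 and 2 without H9), with sums of 263 to 554 TPM in low and 258 to 521 TPM in high purity. For endothelial and blood cells 3 of 9 were higher and 1 lower (3 and 3 without H9), with sums of 11.7 to 15.2 TPM in low and 15.3 to 20.8 TPM in high purity. For fibroblast and stromal cells 2 of 9 were higher and 2 lower (3 and 2 without H9), with sums of 47 to 154 TPM and 80.3 to 217 TPM. Of 10 cardiomyocyte markers 3 were lower and none higher in all 3 lines (3 and 1 without H9), with sums of 16.3 to 502 TPM in low and 16.8 to 49.1 TPM in high purity. Paired by line, the sums of neuroectoderm, endothelial and blood, and fibroblast and stromal markers were higher in high purity in all 3 lines. The amnion and surface ectoderm sum was lower in all 3. Some gaps were small: the endothelial and blood sum was 15.2 TPM in low and 15.3 TPM in high purity of IMR90-4. The amnion and surface ectoderm sum was 263 and 258 TPM in WTC11. The cardiomyocyte sum was lower in H9 and IMR90-4 and slightly higher in WTC11. The part of such cells in the differences above was not tested.

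Disagreement between lines was large for some well-measured genes. Among the 11954 protein-coding genes above, 114 were at least 2-fold higher in 1 line and 2-fold lower in another, and the 8 with the widest range were IRX1, LCP1, UNC5C, NRXN3, ZNF703, MT1X, RPRM and ROR1. IRX1, an Iroquois homeobox factor, was at 3.76 and 23.9 TPM in low and high purity of H9, 7.78 and 2.38 TPM in IMR90-4, and 9.18 and 0.762 TPM in WTC11, giving differences of 2.66, -1.71 and -3.62. LCP1, an actin-bundling protein of blood cells, had -4.36, -1.43 and 1.64, with levels of 5.05 and 0.222, 6.15 and 2.31, and 0.285 and 0.999 TPM. UNC5C, a netrin receptor, had -3.71, 0.02 and 2.28. The choice of these 8 genes required opposite signs in 2 lines. Those lines were H9 and WTC11 in every case. IMR90-4, the line with the smallest SD of the difference over genes (0.539), lay between them in all 8. No such share is given for the 114 genes, so this describes the 8 only.

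ROR1, a receptor for WNT5A, was at 3.88 and 30.6 TPM in H9, 17 and 19.6 TPM in IMR90-4, and 11.7 and 2.82 TPM in WTC11 (differences 2.99, 0.19 and -2.14). NRXN3, a presynaptic adhesion protein, had 1.71, 0.30 and -3.77, RPRM, a p53-induced inhibitor of the cell cycle, had 2.58, -0.44 and -2.60, and ZNF703 had -3.17, -1.13 and 2.29. At this step each line had 1 library per class, so these differences have no test of their own. Over all 4 steps, 2 line-by-purity terms added to the edgeR model passed an adjusted p under 0.05 for 69 genes (0.289%), while 4773 had an unadjusted p under 0.05; libraries of 1 differentiation are not independent across steps, which these p-values do not account for. DESeq2 called 1960 genes for the same terms. Among the genes named up to this point the terms were called for EOMES and SOX17 (edgeR adjusted p = 0.0291 for each) and MEOX1 (0.0469). The H9 difference was far above that of the other lines for EOMES and SOX17, and far below it for MEOX1. More of the 69 genes are named under the results flagged for a closer look.

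The difference in each line was also set beside the change over time in the other lines, for genes at least 2-fold higher or lower at the later step in all 4 series of those lines. From day 0 to day 2 or 3, the 1822 genes that were higher at the later step had a median high-minus-low difference of 0.42 in WTC11, where 69.5% of them were higher in high purity against 46.9% of all genes. The corresponding medians were 0.23 for 1724 genes in H9 (56.8% against 48.3%) and 0.07 for 1181 genes in IMR90-4 (56.2% against 51.9%). Genes lower at the later step had medians of -0.36 in WTC11, -0.22 in H9 and -0.11 in IMR90-4, so that the signs were the same in the 3 lines for this interval. From day 2 or 3 to day 4 or 5, the 755 genes higher at the later step had a median of -0.75 in H9, where 27.7% were higher in high purity. The medians were -0.07 for 286 genes in IMR90-4 (40.9% higher) and 0.00 for 272 genes in WTC11 (46.7% higher). Genes lower at the later step had medians of 0.72 in H9, -0.10 in IMR90-4 and 0.40 in WTC11. Across 23848 genes, the correlation of the difference with the mean change was 0.128 in H9, 0.0749 in IMR90-4 and 0.312 in WTC11 for the earlier interval, and -0.295, 4.3e-07 and -0.0387 for the later; these genes share libraries and are not independent.

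The metallothionein genes, which encode small proteins that bind zinc and copper and are induced by metals through the factor MTF1, were split between lines. The list of 9 genes also holds SLC30A1, a zinc exporter likewise induced through MTF1. The median difference over the list was 1.41 in H9, -0.19 in IMR90-4 and -4.06 in WTC11. Of the 9, 6 were at least 2-fold higher in 1 line and 2-fold lower in another, against 4.17% of all genes and at most 4 members of any other list. The upstream 250 bases of MT1X, MT2A and SLC30A1 are shown because the 9 genes were listed for their shared response to metals. Only 4 of the 9 were in the RefSeq promoter table (GRCh38.p14). Capitals mark matches to TGCACNC or TGCGCNC on either strand, the core of the metal response element, in sequence written 5′ to 3′ in the direction of the gene, from chr16:56682220-56682469 (plus strand), chr16:56608334-56608583 (plus strand) and chr1:211579162-211579411 (minus strand).
MT1X: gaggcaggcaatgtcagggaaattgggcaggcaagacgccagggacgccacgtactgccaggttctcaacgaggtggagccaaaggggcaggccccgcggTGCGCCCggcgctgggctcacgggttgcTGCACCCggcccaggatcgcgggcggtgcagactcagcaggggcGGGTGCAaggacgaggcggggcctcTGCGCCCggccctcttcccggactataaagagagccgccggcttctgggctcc
MT2A: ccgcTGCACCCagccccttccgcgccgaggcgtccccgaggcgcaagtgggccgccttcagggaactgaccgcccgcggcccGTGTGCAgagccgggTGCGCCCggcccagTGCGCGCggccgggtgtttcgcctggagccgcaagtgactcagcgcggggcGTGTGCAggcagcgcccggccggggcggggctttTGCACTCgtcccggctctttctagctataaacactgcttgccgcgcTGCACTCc
SLC30A1: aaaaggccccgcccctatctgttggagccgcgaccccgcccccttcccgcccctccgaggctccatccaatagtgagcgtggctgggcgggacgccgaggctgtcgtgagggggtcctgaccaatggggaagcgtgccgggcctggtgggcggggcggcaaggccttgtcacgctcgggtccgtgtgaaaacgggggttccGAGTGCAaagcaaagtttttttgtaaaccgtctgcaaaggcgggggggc
MT1X had 4 matches, MT2A 7 and SLC30A1 1. Of 35116 upstream windows of the same length, 24.8% had at least 1 match and 0.37% at least 4. A match is a run of letters and says nothing of binding here.

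MT1X was at 9.2 TPM in low and 20.3 TPM in high purity of H9, 9.93 and 10.6 TPM in IMR90-4, and 525 and 33.6 TPM in WTC11. The low-purity WTC11 library was thus far above the other 5 libraries. MT2A was likewise highest there, with 3.04 and 6.08, 1.6 and 0.787, and 107 and 6 TPM, as did MT1G, with 0.137 and 1.81, 1.37 and 0.346, and 150 and 3.44 TPM. MT1E, MT1F and MT1H were at 49.1, 43.6 and 57.5 TPM in the low-purity WTC11 library and at 3.23 TPM or less in the other 5. SLC30A1 did not follow: it was at 3.32 and 5.25, 4.69 and 4.17, and 9.79 and 14.4 TPM. Metallothionein genes are similar in sequence, so that reads may be split among them, and the H9 and IMR90-4 values rest on 0 to 168 reads per gene.

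**Figure D5:**
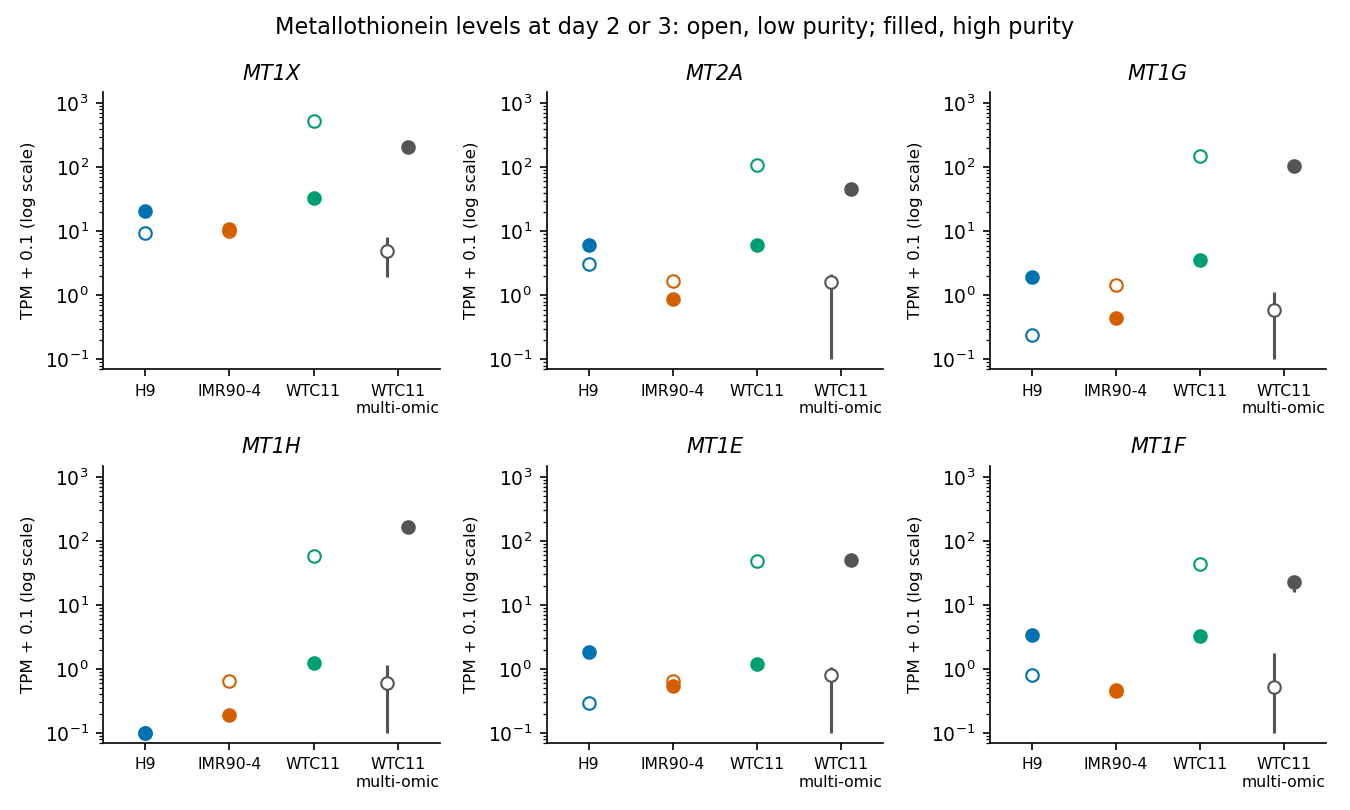
TPM + 0.1 (log axis) of 6 metallothionein genes in the low-purity (open) and high-purity (filled) library of each line and, in grey, the mean and range of 4 wells per class on day 2 of the multi-omic WTC11 experiment. The low-purity point is the higher one in WTC11 of the RNA-only experiment (525 against 33.6 TPM for MT1X) and the lower one in the multi-omic experiment (4.91 against 208 TPM).

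A separate multi-omic experiment in the series sampled WTC11 on day 2, with 4 high-purity wells of a differentiation at passage 52 and 4 low-purity wells of a differentiation at passage 69, in poly(A) libraries. The low-purity WTC11 library described above is also from passage 69, and the labels do not say whether the 2 experiments share that differentiation. Its values are set beside those above without a common scale, because its table was normalized separately, and its wells measure only the spread within a differentiation. In limma on log2(TPM + 1), 1365 of 25664 genes were called there (5.32%), 578 higher and 787 lower. Of the 136 genes 2-fold higher in both H9 and IMR90-4, 105 were in that fit and 41% were higher in high purity, against 46.7% of all genes; of the 361 lower genes, 289 were in it and 53.6% were lower, against 49.6%. MT1X was at 4.91 ± 2.64 TPM (SD, n = 4) in low and 208 ± 28.7 TPM (SD, n = 4) in high purity, opposite to the WTC11 pair of the RNA-only experiment (limma difference 5.32, adjusted p = 7.65e-14). ID2 was at 31.1 ± 7.14 and 113 ± 7.48 TPM (SD, n = 4), also opposite (1.93, adjusted p = 5.4e-19). WNT5A, at 132 ± 7.89 and 51.8 ± 14 TPM (SD, n = 4), was lower in high purity there (-1.30, adjusted p = 1.39e-11). DRC7, CDX2 and WNT4 were not called there, with differences of 0.28, 0.11 and -0.19.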

How the data were processed

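Libraries were total RNA (SMARTer Stranded Total RNA kit), per the labels' protocols, and the processing tools are STAR 2.5.3a and featureCounts 2.0.3 with hg38, per the submitters' processing notes. The authors deposited whole-number read counts per gene, not normalized, and TPM values for the same libraries. Broken lines of 6 genes were left out of the counts. Genes passing filterByExpr (23848) were fitted in edgeR 4.0.16 with TMM factors over all 24 RNA-only libraries, with 12 line-by-step means and 4 high-minus-low terms (8 residual degrees of freedom) and Benjamini-Hochberg adjustment over all genes. The cell line is the pair: same-line libraries deviated together, with correlations of 0.601 in H9, 0.681 in IMR90-4 and 0.749 in WTC11. DESeq2 1.42.0 and limma 3.58.1 gave alternatives, as did other scalings, filters and leaving out each line. The multi-omic day 2 values are limma fits of log2(TPM + 1) on the authors' TPM over 56 libraries. Named protein-coding genes with at least 50 reads in each line were the 12 with the largest smallest-of-3 difference per direction and the 8 with the widest opposite range; the 6 smallest p-values, a set of fixed lineage genes and up to 4 members per list were added, and further list members were named after their values were seen. Members and lists were chosen with earlier results of these data known. A few genes that the rule names are not reported here. Scripts were tested on simulated data.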

Additional observations from a re-analysis of the deposited data

Results flagged for a closer look

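The high-minus-low difference itself differed between lines for 69 genes by 2 line-by-purity terms in edgeR over all 4 steps. Among them, the adjusted p was 0.0291 for EOMES, SOX17, COL3A1 and HOXB3, 0.0374 for HOXB6, APOA2 and HOXB4, and 0.0469 for MEOX1 and HOXA3. H9 had the largest absolute difference at day 2 or 3 in each of these 9 genes, for example -8.40 in COL3A1, a fibrillar collagen, against 1.20 in IMR90-4 and 2.32 in WTC11. These 9 are members of the gene lists and do not stand for all 69. Another line had the largest difference in others of the 69. ZNF736 differed by 0.25 in H9, 4.53 in IMR90-4 and 0.00 in WTC11, and SDK2 by 0.49, 0.04 and -1.54.

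Of 129 genes that the naming rule gives, 80 were at least 2-fold apart in the WTC11 pair and 78 of these were in the multi-omic fit. The multi-omic WTC11 wells had a limma call with no overlap between classes for 19 of them, 17 opposite to the pair and 2, HHEX and FOXA2, in the same direction. Of all 25664 genes in that fit, 5.32% were called, whatever the overlap. The split by direction was not counted over all genes 2-fold apart in the WTC11 pair, so it describes the named genes only. Over genes chosen in H9 and IMR90-4 alone, calls there were 3 in the same and 5 in the opposite direction for higher genes, and 10 and 6 for lower genes. The difference between the experiments was not tested, they used different library kits, and the labels do not say whether their low-purity differentiation, at passage 69 in both, is the same one. Metallothionein genes were higher in high purity there, with log2 differences of 5.32 for MT1X, 6.91 for MT1H, 6.29 for MT1G, 4.39 for MT2A and 5.02 for MT1E. The pluripotency factors NANOG (2.34) and SOX2 (2.21), ID2 (1.93), ADM (2.14) and TRIM22 (1.29) were also higher there. The ligands WNT5A (-1.30), BMP2 (-1.26) and BMP4 (-1.72), the transcription factors SNAI2 (-1.00) and TWIST1 (-1.16), CPLX2 (-1.82) and RASGRP3 (-1.15) were lower there.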

How the results depend on the processing

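No gene was called by edgeR as reported, with either other scaling, with the 6 libraries alone or without the replicate block. The count was 1 with no filter on low counts, 76 by DESeq2, 2 by limma on log2(TPM + 1), and 0 to 1 when each line was left out, the 1 being ADM without H9. Genes with an unadjusted p under 0.05 numbered 945 higher and 951 lower as reported, 445 and 576 without the replicate block (unpaired), and 1466 and 616 by limma. With the 6 libraries alone 576 were lower, and leaving out a line gave 618 to 832 higher and 679 to 832 lower. The 46 genes 2-fold higher in all 3 lines became 73 with a prior count of 0.5, 18 with 10, 2 on log2(TPM + 1), 239 at 1.5-fold and 12 with at least 50 reads; the 69 lower genes became 132, 9, 4, 321 and 8. With 1 line left out these were 136 to 462 and 238 to 366, since fewer lines had to agree. DESeq2 called 1960 genes for the line-by-purity terms and 2 for the change from day 0, and a pseudocount of 0.1 gave 2712 calls in the multi-omic experiment. Of 519 values for 52 named genes, 515 kept their direction and 24 became calls, in 21 genes. Leaving out a line gave NANOG -1.10 (without H9) to 0.43 (without WTC11), and POU5F1 -1.46 (without H9) to 1.04 (without WTC11); POU5F1 was also -0.36 by DESeq2 and -0.05 with the 6 libraries alone. The cause of these shifts was not tested. With 1 library per line and class, the 3 pairs cannot give an exact sign permutation p under 0.25, and low counts limit most genes with a 2-fold difference in all 3 lines.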
